A study of Saccharomyces cerevisiae with 16 samples.

Results

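In *S. cerevisiae*, pyruvate decarboxylases, alcohol dehydrogenases and aldehyde dehydrogenases carry pyruvate to ethanol or acetate. The genes followed here were taken by systematic name as isozymes of these 3 enzyme families: *PDC1* (YLR044C), *PDC5* (YLR134W), *PDC6* (YGR087C), *ADH1* (YOL086C), *ADH2* (YMR303C), *ADH3* (YMR083W), *ADH4* (YGL256W), *ADH5* (YBR145W), *ALD4* (YOR374W) and *ALD6* (YPL061W). They are 10 of the 5647 genes in each deposited count table, and all 10 are present in both tables. The family was selected on measured values, since it was put forward with results of these libraries known, among them the change of *ADH4* in *eIF3i DDKK* cells. That change is given as a description with no p-value, and nothing is read from counts of called members.

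Ribosome footprints and total mRNA were sequenced from 2 mutants of the initiation factor eIF3 and from a matched WT strain for each mutant. Each strain was represented by 2 cultures, which gave 16 libraries. *eIF3a/b Degron* cells (YAJ34) carry *tif32td* and *prt1td*, degron fusions of eIF3a and eIF3b under the *CUP1* promoter, tagged UBI-R-HA and UBI-R-DHFRts-HA. Their WT (YAJ3, here Degron WT) carries pRS316 [URA3] instead, and both are *MATa* strains with mutant alleles of *trp1*, *leu2* and *ura3*, a *gcn2* disruption by *hisG*, and myc-tagged *UBR1* under the *GAL1* promoter. Both were grown at 25°C in raffinose medium with copper and then held at 36°C for 90 min in SCRaff/Gal with the copper chelator BCS. *eIF3i DDKK* cells carry TIF34-D207K-D224K-HA on the plasmid YCp-i, and their WT (here DDKK WT) carries TIF34-HA. Both are H450 transformants, *MATa* with *leu2-3,-112*, *ura3-52::GCN2*, *trp1* and *tif34* deletions, and hc TIF34 URA3 is listed in both genotypes. They were shifted in SC medium from 30°C to 37°C for 30 min. Strain, medium, temperature and time differ together between the backgrounds and cannot be told apart in any comparison between them.

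Pyruvate decarboxylase removes CO2 from pyruvate to give acetaldehyde, the step that commits pyruvate to fermentation. Alcohol dehydrogenases reduce acetaldehyde to ethanol while NADH is reoxidised, or run the reaction in reverse when ethanol is the carbon source. Aldehyde dehydrogenases oxidise acetaldehyde to acetate, from which acetyl-CoA is made. *PDC1* encodes the major decarboxylase, *PDC5* a close copy that can replace it, and *PDC6* a minor form. *ADH1* encodes the main enzyme of ethanol formation, *ADH2* the glucose-repressed enzyme of ethanol use, and *ADH3* a mitochondrial isozyme. *ADH4* encodes an enzyme of a separate protein family whose transcription responds to zinc limitation through the activator Zap1, and *ADH5* a minor isozyme. *ALD4* encodes the main mitochondrial and *ALD6* the main cytosolic aldehyde dehydrogenase.

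Several of these genes are near copies of each other, which bears on how reads can be assigned, so stretches of their coding sequences are shown first. *ADH1* and *ADH2* are identical at 930 of 1047 coding positions (88.8%), and *PDC1* and *PDC5* at 1476 of 1692 (87.2%). Of the 960 windows of 28 nt (about the length of a footprint) in the counted region of *ADH1*, 195 (20.3%) also occur in *ADH2*. *PDC1* shares 73 of 1605 such windows (4.55%) with *PDC5* and 2 with *PDC6*, and *PDC5* shares 14 with *PDC6*. The counted regions of *ADH3*, *ADH4*, *ADH5*, *ALD4* and *ALD6* hold no 28-nt window found elsewhere in the R64 genome. *ADH1* and *ADH2* share a stretch of 189 nt in the counted region without a difference. The first 28 nt of that stretch and the window with most differences are printed from the RefSeq R64 sequence, 5′ to 3′ on the coding strand. Capitals mark bases at which the copies differ, and the first pair has none.
ADH1 identical window, chrXV:160375-160402, minus strand: ggtggtcacgaaggtgccggtgtcgttg
ADH2 identical window, chrXIII:874118-874145, minus strand: ggtggtcacgaaggtgccggtgtcgttg
ADH1 most different window, chrXV:159881-159908, minus strand: CGgTgcTgtTCtAaaggcCacTGacggT
ADH2 most different window, chrXIII:873624-873651, minus strand: TAgCgcAgtCGtTaaggcTacCAacggC

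A read from the first window fits both genes equally, whereas the second window differs at 11 of 28 bases. The longest such stretch of *PDC1* and *PDC5* is 65 nt, and their most different window, shown with the same use of capitals, differs at 15 of 28 bases.
PDC1 most different window, chrXII:233464-233491, minus strand: aAAGgaagtCAttGACacCAtCTtGgCT
PDC5 most different window, chrXII:411313-411340, plus strand: aGCTgaagtTGttAGAacTGtTGtTgAA

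The sources used here do not say how reads that match several places were counted, so values of *PDC1*, *PDC5*, *PDC6*, *ADH1* and *ADH2* are uncertain to that extent. Overlap of the 10 coding sequences with other annotated genes was not examined.

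The sequence around the start codon is where the initiation machinery settles, and A at position −3 is the favoured base in yeast. It is shown for *ADH4* and *ADH5*, the members with the largest changes in translation, and for *ADH1* and *ADH2*, with the start codon in capitals and 12 bases on either side.
ADH4, chrVII:15147-15173, plus strand: caaataagaaaaATGtcttccgttact
ADH5, chrII:533750-533776, plus strand: aatcaaagcatcATGccttcgcaagtc
ADH1, chrXV:160580-160606, minus strand: atctcatatacaATGtctatcccagaa
ADH2, chrXIII:874323-874349, minus strand: tcgtaatacacaATGtctattccagaa

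All 10 genes have A at position −3, as do 60.8% of the 6004 annotated coding sequences examined, so this base does not separate *ADH4* and *ADH5* from the other members.

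Libraries held between 4389212 and 29982592 counted reads, and those of the mutants were the smaller in each background and assay. In *eIF3a/b Degron* cells footprints of *TIF32* (eIF3a) numbered 708 and 697, against 6033 and 5503 in its WT, and those of *PRT1* (eIF3b) 957 and 951, against 8105 and 7374. Their mRNA reads numbered 3973 and 3706 against 4411 and 5482 for *TIF32*, and 3355 and 3250 against 4249 and 5521 for *PRT1*. Scaled for the smaller mutant libraries, footprints changed by -1.65 and -1.64 and mRNA by 0.40 and 0.20 on the log2 scale, so that the footprints of both genes fell while their mRNA did not. Protein levels of the subunits were not measured in these libraries. The substitutions in *TIF34* (eIF3i) cannot be read from gene counts. In *eIF3i DDKK* cells *TIF34* changed by 0.69 (SE 0.13) for mRNA and 0.91 (SE 0.13) for footprints on the log2 scale. The adjusted p was 0.00532 and 0.000474 by edgeR's quasi-likelihood test. Together the 10 genes took 1.24% and 1.31% of mRNA reads and 2.32% and 2.31% of footprints of Degron WT, against 0.562% and 0.618%, and 0.771% and 0.847%, of the mutant. They took 1.72% and 1.95% of mRNA reads and 2.98% and 2.91% of footprints of DDKK WT, against 0.745% and 0.751%, and 1.33% and 1.09%, of the mutant. No spike-in was used, so each change is set against the rest of the mRNA in its own libraries.

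Levels of different genes were compared as CPM (reads per 10 to the power 6 reads), scaled by the TMM method over the 16 libraries, per kb of counted region. *PDC1* and *ADH1* stood far above their isozymes in all 16 libraries. Among mRNAs of Degron WT, *ADH1* measured 3432 and 3691 CPM per kb, *ADH2* 502 and 519.5, *ADH3* 233 and 240.3, *ADH4* 44.4 and 46.1 and *ADH5* 20.3 and 18.3. The ADH mRNAs thus lay in the order of their numbers, and no neighbours in that order overlapped. *PDC1* mRNA measured 2751 and 2979, *PDC5* 45.1 and 53.0 and *PDC6* 1.84 and 1.65. *ALD4* measured 314 and 287, above *ALD6* with 72.2 and 72.4.

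In DDKK WT the ADH mRNAs had the same order, with *ADH1* at 5169 and 5455 CPM per kb, *ADH4* at 59.5 and 51.8 and *ADH5* at 22.2 and 18.2. There *PDC1* mRNA, at 7703 and 6586, stood above *ADH1* mRNA, whereas it stood below it in Degron WT. Footprints of *ADH4* were 7.07 and 8.30 CPM per kb in Degron WT and 35.6 and 37.8 in DDKK WT, so that *ADH4* had fewer footprints than *ADH5* (23.9 and 28.9) in the first strain and more than *ADH5* (17.6 and 18.8) in the second.

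**Figure D1:**
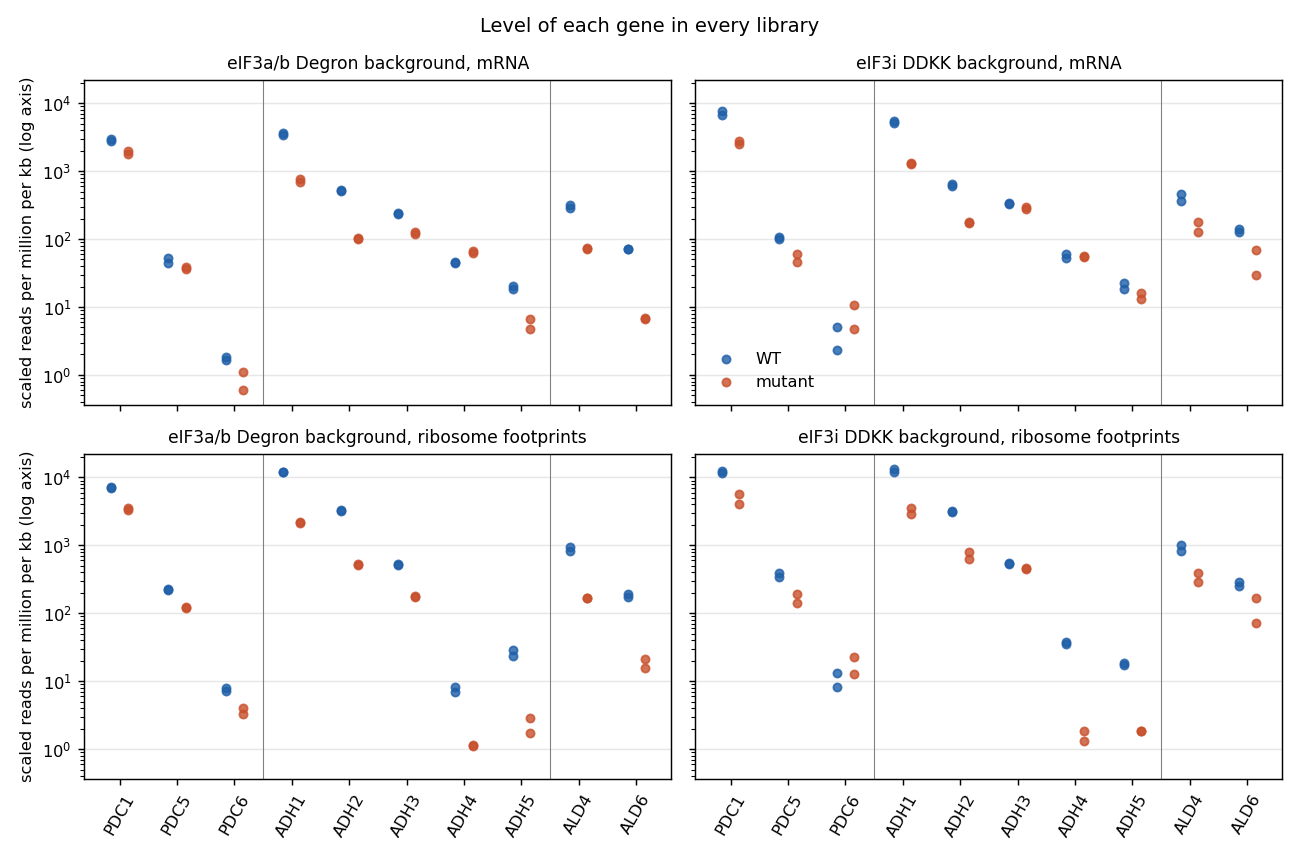
Scaled CPM per kb of counted region, on a log axis, for the 10 genes in each library, with mRNA and footprints in separate panels for the Degron and DDKK backgrounds. Each point is 1 culture, coloured by WT or mutant. *PDC1* and *ADH1* are the highest in all panels, and mutant footprints of *ADH4* and *ADH5* lie between 1.11 and 2.86 CPM per kb.

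The first comparison asked which of these mRNAs changed in amount and in ribosome occupancy in cells with degron-tagged eIF3a and eIF3b. In *eIF3a/b Degron* cells footprints fell for all 9 genes that could be tested, and mRNA fell for 8 of them and rose for *ADH4*. Relative translational efficiency (TErel, footprints over mRNA within a strain) fell for 8, with *ALD6* as the exception, and its log2 change between mutant and WT is called ∆TErel. Of all 5306 genes tested, 83.2% were called for footprints (41.3% lower, 41.8% higher), 75.1% for mRNA (30.8% lower, 44.3% higher) and 59.8% for TErel (33.1% lower, 26.8% higher), by edgeR's quasi-likelihood test at an adjusted p under 0.05. The median log2 change of the 9 genes was -2.51 for footprints, -1.65 for mRNA and -0.63 for TErel, against 0.0050, 0.12 and -0.037 over all genes tested.

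*PDC6* was below the minimum mRNA count in this background, with 36 and 39 reads from Degron WT and 16 and 8 from the mutant. Its footprints numbered 212 and 172, against 39 and 30 in the mutant. Fitted without a filter on low counts, *PDC6* footprints changed by -1.11 (SE 0.23, adjusted p = 6.48e-05), its mRNA by -0.89 (SE 0.37, adjusted p = 0.0327) and its TErel by -0.23 (SE 0.46, adjusted p = 0.703).

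*ADH4* showed the largest ∆TErel of the family in this background. Its mRNA was counted 578 and 725 times in Degron WT and 602 and 605 times in the mutant, whereas 126 and 131 footprints stood against 7 and 7. Mutant cultures lay far below WT cultures in footprints, while their scaled mRNA (63.3 and 67.4 CPM per kb) lay above that of WT (44.4 and 46.1). *ADH4* mRNA rose by 0.65 (SE 0.089, adjusted p = 6.2e-07) on the log2 scale, and its footprints changed by -2.80 (SE 0.29, adjusted p = 3.78e-09). The resulting ∆TErel was -3.46 (SE 0.29, adjusted p = 1.64e-09), an 11.0-fold decrease and number 16 from the lowest of the 5306 genes tested. Leaving out single cultures moved it only between -3.55 and -3.37.

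*ADH5*, the minor isozyme, lost both mRNA and footprints. Its mRNA reads numbered 242 and 263 from Degron WT and 41 and 54 from the mutant, and its footprints 390 and 417 against 10 and 16. Groups did not overlap in either assay. *ADH5* mRNA changed by -1.65 (SE 0.19, adjusted p = 5.26e-08), its footprints by -3.57 (SE 0.25, adjusted p = 2.77e-12) and its TErel by -1.92 (SE 0.36, adjusted p = 9.69e-05). Leave-out values of this ∆TErel ranged from -2.13 to -1.70.

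*ADH1*, *ADH2*, *ALD4* and *ALD6* lost most of their mRNA. *ADH1* mRNA went from 3432 and 3691 to 680.1 and 770.2 CPM per kb, a log2 change of -2.17 (SE 0.076, adjusted p = 2.05e-17). *ADH2* mRNA went from 502 and 519.5 to 100.3 and 102, a change of -2.21 (SE 0.071, adjusted p = 4.74e-18). These paralogs, which share windows of sequence, thus had similar fitted changes. *ALD4* mRNA went from 314 and 287 to 73.0 and 71.0, a change of -1.94 (SE 0.077, adjusted p = 2.5e-16).

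*ALD6*, the main cytosolic source of acetate, had the largest mRNA decrease of the family. Its mRNA reads numbered 1246 and 1509 from Degron WT and 87 and 80 from the mutant, and its scaled footprints measured 193 and 175 CPM per kb in Degron WT and 21.6 and 15.8 in the mutant. The mRNA change was -3.28 (SE 0.11, adjusted p = 2.26e-17), a 9.72-fold decrease and number 17 from the lowest among the genes tested. Footprints of *ALD6* changed by -3.35 (SE 0.097, adjusted p = 3e-19), so that its ∆TErel was -0.068 (SE 0.17, adjusted p = 0.753). Footprints and mRNA of *ALD6* thus differed little in their decrease, and the sign of this ∆TErel changed with other scalings.

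The other members had smaller ∆TErel values. *ADH3*, the mitochondrial isozyme, had a ∆TErel of -0.79 (SE 0.093, adjusted p = 2.07e-07), with an mRNA change of -0.83 (SE 0.067, adjusted p = 9.31e-11). *PDC1* had a ∆TErel of -0.63 (SE 0.10, adjusted p = 1.84e-05) and *PDC5* of -0.64 (SE 0.11, adjusted p = 2.51e-05), with mRNA changes of -0.46 (SE 0.074) and -0.25 (SE 0.082). The mRNA decrease of *PDC5* no longer passed without the second WT culture (-0.13, adjusted p = 0.237).

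*ALD4* had a ∆TErel of -0.52 (SE 0.10, adjusted p = 0.00021), *ADH2* of -0.46 (SE 0.095, adjusted p = 0.000236) and *ADH1* of -0.34 (SE 0.10, adjusted p = 0.00661). The decrease of *ADH1* did not pass without the first WT culture (-0.29, adjusted p = 0.0803) or the second mutant culture (-0.31, adjusted p = 0.0778). Scaling by library size alone moved the median ∆TErel of all genes to 0.28, and *ADH1* (-0.028), *ADH2* (-0.15) and *ALD4* (-0.20) were then not called. A fit of all 16 libraries took its scaling and its spread from both backgrounds. In that fit *PDC1* (-0.46), *PDC5* (-0.47), *ADH1* (-0.17), *ADH2* (-0.29) and *ALD4* (-0.34) were not called. Value and error both moved, for *PDC1* from -0.63 (SE 0.10) to -0.46 (SE 0.21).

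**Figure D2:**
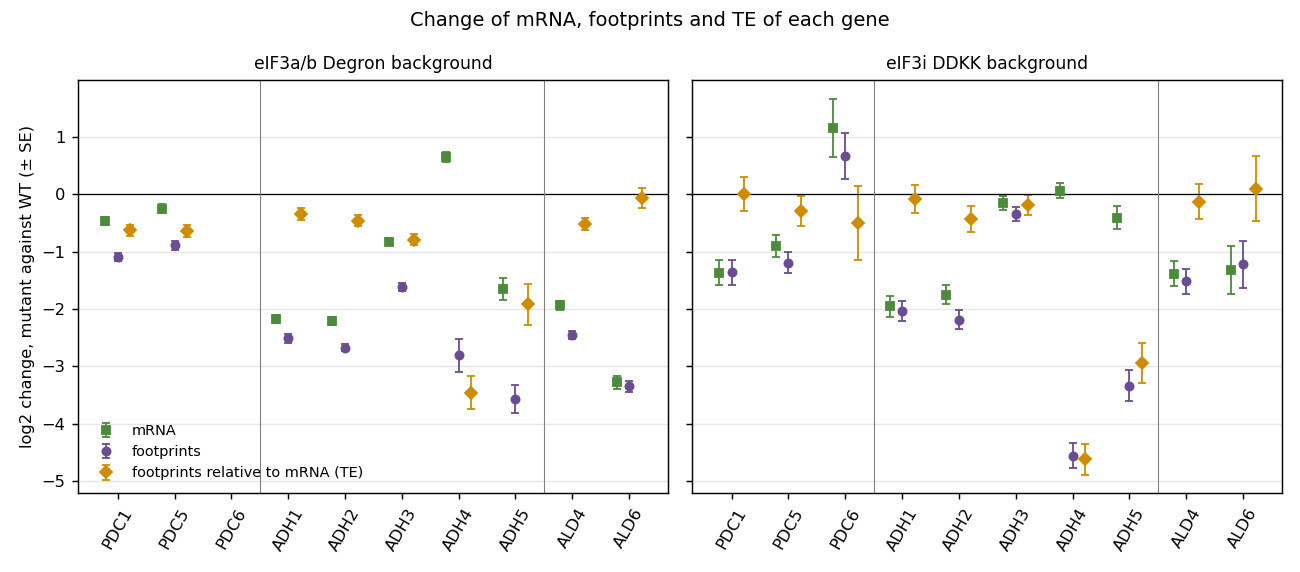
Log2 change of mRNA, footprints and TE between mutant and WT for each gene, with bars of 1 SE from the edgeR fit of the 8 libraries of a background. *ADH4* and *ADH5* have the lowest TE in each background (-3.46 and -1.92 in *eIF3a/b Degron* cells, -4.62 and -2.94 in *eIF3i DDKK* cells), and *PDC6* has no value in the Degron background because it was below the minimum mRNA count.

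The second comparison asked the same of *eIF3i DDKK* cells, in which eIF3a and eIF3b are unaltered and eIF3i carries substitutions. Of the 9 members other than *ADH4*, footprints fell for 8, mRNA for 6 and TErel for 1, *ADH5*. Of all 5244 genes tested, 52.4% were called for footprints (26.2% lower), 28.5% for mRNA (12.0% lower, 16.5% higher) and 4.02% for TErel (2.88% lower, 1.14% higher). The median log2 change of the 9 genes was -1.36 for footprints, -1.32 for mRNA and -0.19 for TErel, against 0.0075, 0.11 and -0.084 over all genes tested. Cultures of this background were further apart, with a biological coefficient of variation of 0.121 in edgeR's fit against 0.0483 in the other. Without the first or the second DDKK WT culture, 166 and 252 genes of the whole table passed for mRNA, against 1497 with all libraries, and 3 and 5 passed for TErel, against 211.

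DDKK WT cultures gave 689 and 417 mRNA reads of *ADH4* and the mutant 367 and 287, whereas 875 and 862 footprints stood against 11 and 7. Scaled mRNA levels overlapped (59.5 and 51.8 CPM per kb, and 55.9 and 54.4 in the mutant), and scaled footprints did not (35.6 and 37.8, and 1.85 and 1.34 in the mutant). The fitted log2 change was 0.061 (SE 0.13) for mRNA, -4.56 (SE 0.22) for footprints and -4.62 (SE 0.26) for TErel, a 24.6-fold decrease and number 2 from the lowest of the 5244 genes tested. Leave-out values of this ∆TErel ranged from -4.85 to -4.43. These *ADH4* values were known when the family was chosen.

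*ADH5* mRNA was counted 235 and 134 times in DDKK WT and 95 and 63 times in the mutant, with a log2 change of -0.41 (SE 0.19, adjusted p = 0.141). Its footprints numbered 395 and 393, against 10 and 9. The mutant cultures lay far below WT in footprints, with a change of -3.34 (SE 0.27, adjusted p = 2.03e-05). The ∆TErel of *ADH5* was -2.94 (SE 0.35, adjusted p = 0.00285), number 6 from the lowest of the genes tested. It was -3.15 without the first and -2.74 without the second WT culture, with an adjusted p of 0.113 in each case.

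*ADH1* mRNA fell in *eIF3i DDKK* cells as well, from 5169 and 5455 to 1319 and 1276 CPM per kb, a log2 change of -1.96 (SE 0.18, adjusted p = 0.000112). *ADH2* mRNA went from 647 and 607 to 174 and 179, a change of -1.75 (SE 0.17, adjusted p = 0.000131). For neither gene did the groups overlap. Their ∆TErel values were -0.076 (SE 0.24, adjusted p = 0.9) for *ADH1* and -0.43 (SE 0.23, adjusted p = 0.325) for *ADH2*.

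*PDC1* mRNA went from 7703 and 6586 to 2462 and 2796 CPM per kb, a change of -1.37 (SE 0.21, adjusted p = 0.00205). *PDC5* mRNA changed by -0.90 (SE 0.19, adjusted p = 0.00826) and *ALD4* mRNA by -1.39 (SE 0.22, adjusted p = 0.00225). Without the first WT culture the adjusted p was 0.0561 for *PDC1* (-1.24) and 0.134 for *PDC5* (-0.82), and without the second it was 0.0734 for *PDC5* (-0.97). The ∆TErel values of *PDC1*, *PDC5* and *ALD4* were 0.0042 (SE 0.30), -0.30 (SE 0.26) and -0.13 (SE 0.30), with errors that leave room for changes of the size seen in *eIF3a/b Degron* cells. Leaving out a mutant culture moved the values of *PDC1* and *PDC5*. Without the first mutant culture *PDC5* was called lower, at -0.72 (adjusted p = 0.0393), and without the second it stood at 0.12 (adjusted p = 0.812). For *PDC1* the same settings gave -0.32 (adjusted p = 0.608) and 0.32 (adjusted p = 0.699).

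The mutant cultures of this background were furthest apart for *ALD6*. Its mRNA reads were 610 and 209 in the mutant cultures and 2138 and 1349 in the WT cultures, and its footprints 1336 and 491 against 9330 and 7670. The first mutant culture stood well above the second in each assay, although both lay below WT. *ALD6* mRNA changed by -1.32 (SE 0.41, adjusted p = 0.039) and its footprints by -1.22 (SE 0.40, adjusted p = 0.0278). Without the first WT culture the adjusted p was 0.216 for mRNA (-1.24) and 0.132 for footprints (-1.14). Without the second it was 0.139 (-1.40) and 0.0847 (-1.31), and DESeq2 called neither (adjusted p = 0.0759 and 0.0886). Without the first mutant culture the *ALD6* values were -2.09 and -1.99, and without the second -0.85 and -0.73. The mRNA of *ALD4*, at 126 and 175 CPM per kb, was lower in the first mutant culture than in the second.

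*ADH3* mRNA changed by -0.16 (SE 0.12, adjusted p = 0.364) in *eIF3i DDKK* cells and its footprints by -0.35 (SE 0.12, adjusted p = 0.0383). The footprint change was not called without the first WT culture (-0.36, adjusted p = 0.261), the second (-0.33, adjusted p = 0.297) or the first mutant culture (-0.33, adjusted p = 0.0564), nor with scaling by library size alone (-0.041).

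*PDC6* was the only member with a fitted footprint change above 0. Its mRNA reads were 40 and 62 in DDKK WT and 47 and 85 in the mutant, and its footprints 490 and 282 against 115 and 179. Cultures of a strain differed widely and the groups overlapped in each assay on the scaled level. The fitted change was 1.16 (SE 0.51, adjusted p = 0.112) for mRNA and 0.66 (SE 0.40, adjusted p = 0.189) for footprints, and neither passed. Without the first mutant culture both passed, at 1.66 (adjusted p = 0.00857) and 1.02 (adjusted p = 0.0135). Scaled by library size alone they were 1.30 (adjusted p = 0.0106) and 0.98 (adjusted p = 0.0112). DESeq2 called the mRNA change, at 1.10 (adjusted p = 0.0344).

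Whether a change differed between the backgrounds was tested for the 8 genes other than *ADH4* that passed the minimum in each. For ∆TErel edgeR called 0 of the 8 differences, against 3.67% of 5228 genes (1.78% lower, 1.89% higher in *eIF3a/b Degron* cells), while 1 had an unadjusted p under 0.05 and DESeq2 called 1, that of *ADH3*. The difference in ∆TErel, Degron minus DDKK, was 1.05 (SE 0.54, adjusted p = 0.303) for *ADH5* and -0.57 (SE 0.17, adjusted p = 0.0773) for *ADH3*. Without the first DDKK mutant culture edgeR called *ADH3* (-0.57, adjusted p = 0.0464). Without the second it called *ADH3* (-0.58, adjusted p = 0.0278), *PDC1* (-0.91, adjusted p = 0.0281) and *PDC5* (-0.72, adjusted p = 0.0324). For mRNA 4 differences were called below 0 and 2 above (21.4% and 17.2% of genes, 38.6% in all), and for footprints 5 below and 0 above (27.4% and 26.5%, 53.9% in all). The *ADH4* differences, given as a description, were 0.54 for mRNA and 1.73 for footprints. The mRNA of *ALD6* fell further in *eIF3a/b Degron* cells, with a difference of -2.02 (SE 0.51, adjusted p = 0.00693), as did that of *ADH5* with -1.30 (SE 0.28, adjusted p = 0.00259) and of *ADH3* with -0.72 (SE 0.12, adjusted p = 0.000454). These differences in mRNA of *ALD6*, *ADH5* and *ADH3* were called with each of the 8 cultures left out. *PDC1* mRNA fell less there, with a difference of 0.85 (SE 0.21, adjusted p = 0.00593), which was not called without the first Degron WT culture (0.79, adjusted p = 0.0503) or the second Degron mutant culture (0.74, adjusted p = 0.0532).

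The WT strains themselves differed in some of these genes. *PDC1* mRNA was lower in Degron WT than in DDKK WT by a log2 difference of -1.31 (SE 0.15, adjusted p = 7.5e-06) and *PDC5* mRNA by -1.07 (SE 0.15, adjusted p = 5.51e-05), and each was called with any WT culture left out. In all, 6 of the 8 genes other than *ADH4* were called lower for mRNA (18.9% of 5228 genes lower, 18.4% higher, 37.3% in all). The other 4 were *ADH1* (-0.57), *ADH3* (-0.49), *ALD4* (-0.45) and *ALD6* (-0.87). Of these only *ADH3* was called with every WT culture left out, and scaling by library size alone, which moved the median of all genes to 0.48, left *PDC1* and *PDC5* as the only calls. For footprints *PDC1* and *PDC5* were called lower and *ADH5* higher (20.7% and 26.7% of genes, 47.4% in all), and the call of *ADH5* (0.55) was lost without the second Degron WT culture (0.41) or the first DDKK WT culture (0.50). For TErel edgeR called 0 of these 8 genes (1.76% of genes lower, 2.07% higher, 3.83% in all), with 4 at an unadjusted p under 0.05 and 1 called by DESeq2, *ADH3*.

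*ADH4* had 126 and 131 footprints in Degron WT and 875 and 862 in DDKK WT. Its footprints differed by -2.25 (SE 0.12), its mRNA by -0.29 and its TErel by -1.95 (SE 0.15). This comparison shares the DDKK WT libraries with the *ADH4* change that was known when the family was chosen, so no p-value is given for it.

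TErel can also be read as a level, the footprints per mRNA read of a gene relative to the median gene of the same libraries. An mRNA and a footprint library of a strain were matched by their replicate number, and the labels do not say that a number marks 1 culture, so the 2 levels of a strain are not a measure of its spread between cultures. The members other than *ADH4* and *ADH5* stood above the median gene in all 8 such pairs. In Degron WT the log2 TErel level of *ADH2* was 2.73 and 2.64, above 99.5% of genes tested in each pair, and that of *ADH1* was 1.83 and 1.73. Reads of windows shared by *ADH1* and *ADH2* may enter both levels, to an extent that was not tested. For *ADH4* the level was -2.62 and -2.43 in Degron WT and -5.88 and -5.89 in its mutant. Under the DDKK conditions it stood at -0.71 and -0.43 (WT) and at -4.88 and -5.28 (mutant). *ADH4* was thus the lowest member in every pair, and its level in WT lay further below the median gene in the Degron background than in the DDKK background. *ADH5* was nearer the median gene, at 0.26 and 0.70 in Degron WT and -0.31 and 0.07 in DDKK WT, and stood at -1.53 and -1.28 and -3.07 and -2.76 in the respective mutants.

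**Figure D3:**
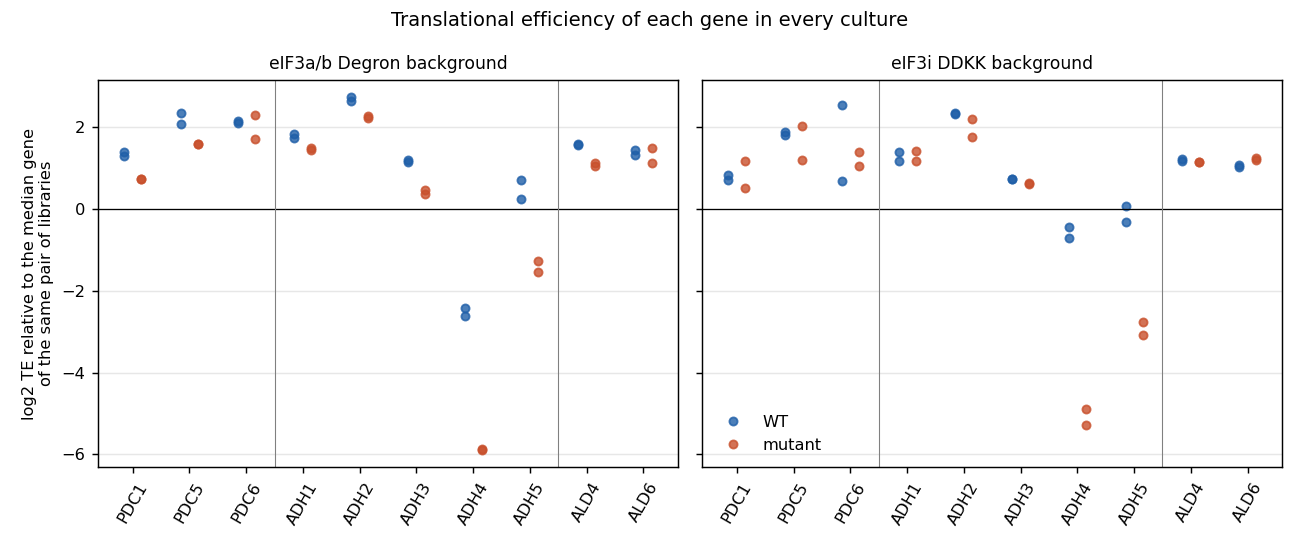
Log2 TE level of each gene in each mRNA and footprint library of the same number, relative to the median of the genes tested in that pair (line at 0), for the Degron and DDKK backgrounds, coloured by WT or mutant. *ADH4* and *ADH5* lie below the line in both mutants (-5.88 and -5.89, and -1.53 and -1.28, in *eIF3a/b Degron* cells), and the other members lie above it in every pair.

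The isozymes were compared within each library as shares of their family in reads per kb. *PDC1* took 96.2% to 98.6% of the PDC reads per kb over the 16 libraries. Among the ADH genes *ADH1* took 81.1% and 81.7% of mRNA in Degron WT and 69.9% and 72.2% in the mutant. The mRNA share of *ADH3* was 5.51% and 5.32% in Degron WT and 12.8% and 11.3% in the mutant, and that of *ADH4* was 1.05% and 1.02% and 6.51% and 6.32%. Both isozymes thus made up more of the ADH mRNA in the mutant, although *ADH3* mRNA itself fell (-0.83), less than that of *ADH1* (-2.17). With reads divided by each gene's share of windows found nowhere else, the mean mRNA share of *ADH3* was 4.38% in Degron WT and 10.0% in the mutant. That of *ADH4* was then 0.836% and 5.32%. The footprint share of *ADH4* was 0.0446% and 0.0530% in Degron WT and 0.0397% and 0.0387% in the mutant.

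In DDKK WT *ADH1* took 83.0% and 84.3% of ADH mRNA and in the mutant 71.5% and 70.3%, and *ADH3* took 5.32% and 5.24% and 15.1% and 16.1%. The footprint share of *ADH4* was 0.207% and 0.239% in DDKK WT and 0.0383% and 0.0334% in the mutant, while its mRNA share was 0.955% and 0.800% and 3.03% and 3.00%. *ALD6* took 18.7% and 20.1% of the ALD mRNA in Degron WT and 8.65% and 8.66% in its mutant. It took 27.4% and 21.6% in DDKK WT and 35.8% and 14.6% in its mutant, so that the mutant cultures of the DDKK background lay on either side of their WT. With 2 cultures a strain no exact permutation test of a share can pass 0.05, and these shares are descriptions.

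*ADH2* reads were a narrow share of *ADH1* reads within an assay. They came to 11.1% to 14.7% of *ADH1* reads over the 8 mRNA libraries and to 21.3% to 27.4% over the 8 footprint libraries, with WT and mutants of both backgrounds included. If reads of the shared windows were divided evenly and *ADH2* had no reads of its own, the share would be 11.3%. The mRNA libraries lie near that value and the footprint libraries lie above it. *PDC5* reads came to 1.41% to 2.13% of *PDC1* reads in mRNA and 2.94% to 3.69% in footprints, where the same arithmetic gives 2.33%. How far shared reads enter the values of *ADH2* and *PDC5* was not tested, since the tables hold gene totals.

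**Figure D4:**
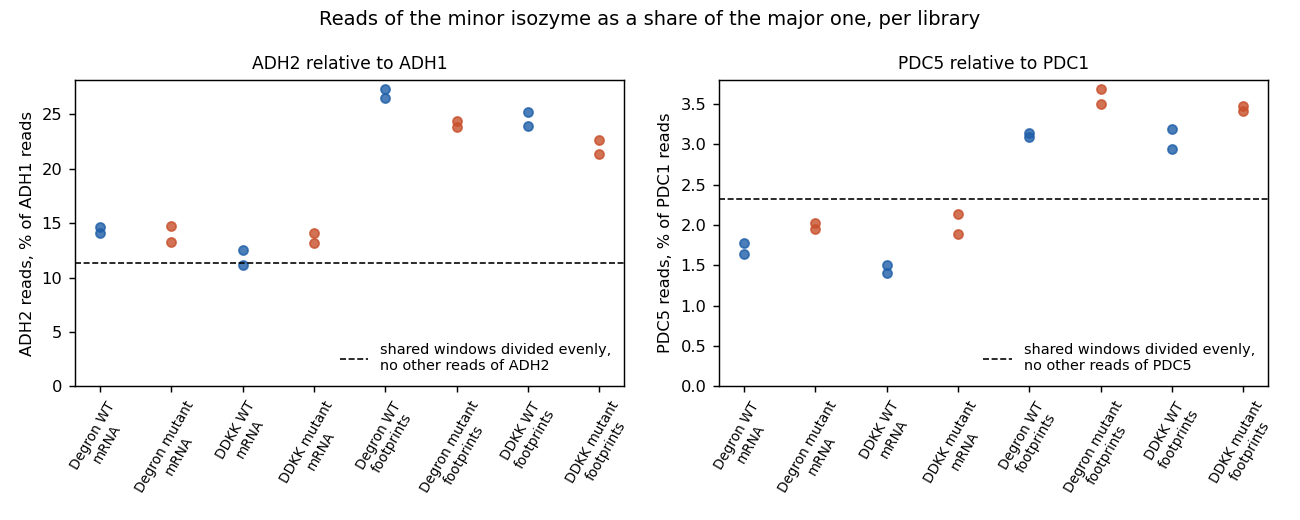
Reads of *ADH2* as a percentage of *ADH1* reads, and of *PDC5* as a percentage of *PDC1* reads, in each library, coloured by WT or mutant. The dashed lines are the shares that would arise if reads of the shared 28-nt windows were divided evenly and the minor gene had no others, 11.3% and 2.33%. *ADH2* mRNA lies at 11.1% to 14.7%, near its line, and *ADH2* footprints at 21.3% to 27.4%.

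Other genes of the pathway were described by lists, beside the shares of all genes tested. Leave-out values were drawn up for the members only, so calls of list genes rest on the fit of all 8 libraries of a background. In *eIF3i DDKK* cells 4.02% of all genes were called for TErel. Of 12 further enzymes of aldehydes, alcohols and acetate, TErel fell for 6 and rose for 2 in *eIF3a/b Degron* cells (33.1% and 26.8% of all genes). Their median was -0.34, against -0.037 over all genes tested. *ALD3*, a cytosolic aldehyde dehydrogenase induced by stress, had a ∆TErel of -1.50 (SE 0.16, adjusted p = 6.16e-08), with 949 and 728 footprints in Degron WT and 127 and 133 in the mutant. *ALD5*, a mitochondrial one, had a ∆TErel of -1.18 (SE 0.14, adjusted p = 3.09e-07). *ALD5* was also the only gene of that list called in *eIF3i DDKK* cells, at -1.11 (SE 0.26, adjusted p = 0.0456), with 1107 and 811 footprints in DDKK WT and 90 and 60 in the mutant.

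The next list held 10 genes of the pyruvate dehydrogenase complex, pyruvate carboxylase and the mitochondrial pyruvate carrier. In *eIF3a/b Degron* cells mRNA fell for 9 (30.8% of all genes), and TErel fell for 5 and rose for 2 (33.1% and 26.8%). *PYC2*, a pyruvate carboxylase, had a ∆TErel of -1.27 (SE 0.10) and *MPC1*, a carrier subunit, of 1.00 (SE 0.13). In *eIF3i DDKK* cells edgeR called 0 of these 10 for TErel, with 4 at an unadjusted p under 0.05 and 1 called by DESeq2. Of 8 genes of glycerol formation and NADH oxidation, TErel fell for 3 and rose for 1 in *eIF3a/b Degron* cells (33.1% and 26.8% of all genes). They include *NDI1*, the internal NADH dehydrogenase of mitochondria, at -0.94 (SE 0.11), and *GPP2*, a glycerol phosphatase, at -0.87 (SE 0.17). In *eIF3i DDKK* cells edgeR called 0 of the 8 and DESeq2 0, with 1 at an unadjusted p under 0.05.

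Of 5 regulators, TErel fell for 2 in *eIF3a/b Degron* cells (33.1% of all genes). *ADR1*, the activator of *ADH2*, had an mRNA change of -2.10 and a ∆TErel of -0.87 (SE 0.11, adjusted p = 3.15e-07). *PDC2*, the activator of *PDC1* and *PDC5*, had an mRNA change of 0.50 and a ∆TErel of -0.27 (SE 0.11, adjusted p = 0.0404). In *eIF3i DDKK* cells 0 of the 5 were called by edgeR and 0 by DESeq2, with 1 at an unadjusted p under 0.05. A list of thiamine genes was included because the cofactor of pyruvate decarboxylase is made from thiamine. Of the 7 tested, TErel rose for 3 and fell for 1 in *eIF3a/b Degron* cells (26.8% and 33.1% of all genes). It rose for 1 in *eIF3i DDKK* cells (1.14% of all genes). *THI22* had a ∆TErel of 2.71 (SE 0.34), with 14 and 8 footprints in Degron WT and 60 and 48 in the mutant, and has close paralogs with which it may share reads. *THI80*, thiamine pyrophosphokinase, had a ∆TErel of 0.78 (SE 0.14).

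The zinc genes bear on *ADH4*, which shares their regulator Zap1. Of 8 zinc genes, mRNA rose for 6 in *eIF3a/b Degron* cells and for 4 in *eIF3i DDKK* cells, where 44.3% and 16.5% of all genes rose. Their TErel fell for 3 and rose for 2 in the first mutant (33.1% and 26.8% of all genes), and fell for 1 in the second (2.88%). *ZRT2*, a low-affinity zinc transporter, and *ZRC1*, a vacuolar zinc transporter, had ∆TErel values of -1.29 (SE 0.21) and -1.26 (SE 0.10) in *eIF3a/b Degron* cells. *ZPS1*, a putative secreted protein induced by low zinc, had a ∆TErel of -2.76 in *eIF3i DDKK* cells (SE 0.40, adjusted p = 0.00947), with 24 and 9 footprints against 662 and 677.

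*ZPS1* was also the gene nearest to *ADH4* over 4 fitted changes (mRNA and footprints in each background). Its Euclidean distance was 1.54 among 5228 genes. These changes include the DDKK footprint change of *ADH4* (-4.56), known when the family was chosen, so the ranking is a description. Footprint changes of *ZPS1* were -2.68 (Degron) and -3.32 (DDKK), against -2.80 and -4.56 for *ADH4*. Its mRNA changes were 0.0037 and -0.56, against 0.65 and 0.061. A shared response of these genes was not tested. Footprints of *ZPS1* in the Degron background were few, 22 and 30 in WT and 0 and 3 in the mutant. *HAC1*, which encodes the transcription factor of the unfolded protein response, came next at 1.73, and then YOL029C at 2.16, with at most 5 footprints in any library. For *ADH2* the nearest genes were *ADH1* (0.30), with which it shares windows, *HXK2*, a hexokinase (0.41), and *AHA1*, an Hsp90 co-chaperone (0.41).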

How the data were processed

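For every library the authors deposited raw counts of reads over each coding sequence, leaving out its first 15 and last 5 codons. Per the labels the tools include CASAVA 1.8, Bowtie2 2.2.6.0, TopHat2 2.1.0 and DESeq2, with build sacCer3. The lengths of counted regions in the tables matched the RefSeq R64 annotation for all 10 genes. A deposited table of the authors' own log2 TE, log2 changes and adjusted p-values was not used. Of 5647 gene IDs, 5450 matched a RefSeq name, all members among them.

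Genes with at least 128 mRNA reads summed over the 4 mRNA libraries of a background were kept, as in the study's methods. Counts of the 8 libraries of a background were scaled by TMM and fitted with edgeR 4.0.16 in R 4.3.3 (quasi-likelihood F-test, Benjamini-Hochberg adjustment across the whole table, threshold 0.05). ∆TErel is the interaction of assay and genotype. Comparisons between backgrounds used 1 fit of 16 libraries. Each SE was obtained as the absolute log2 change over the square root of its F value. TErel levels had 0.5 added to each count. Levels, windows and figures were made with Python 3.11.15, pandas 2.3.3, Biopython 1.88 and matplotlib 3.10.9. On simulated counts with 2-fold changes in 200 genes, 185 of the 199 tested were recovered at the Degron dispersion (5277 genes, 5 false calls) and 133 of 199 at the DDKK dispersion (5214 genes, 6 false calls). The simulation took its spread from the fitted trend and left all other genes unchanged, unlike these data. Its false calls therefore give no error rate for them.

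Members and lists were chosen with earlier results of these data known. Genes named were the members, the altered subunits, per list and background at most 2 genes with the largest called ∆TErel and at least 128 footprints, and the 3 genes nearest to *ADH4* and to *ADH2*. Alternatives were scaling by library size, TMM within assay, DESeq2 1.42.0, other count filters, replicate number or culture as a block, 1 fit of 16 libraries, and single cultures left out. A culture left out, or used as a block, means the mRNA and footprint libraries of a strain with the same replicate number. The labels do not say that these come from 1 culture. With 2 cultures a strain, p-values rest on the spread between these cultures and no others. edgeR pools that spread over the groups of a fit and moderates it across genes.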

Additional observations from a re-analysis of the deposited data

Results flagged for a closer look

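The changes of several members differed between the backgrounds in the test of the difference itself (edgeR, 16 libraries, Degron change minus DDKK change on the log2 scale). For mRNA the differences were 0.85 for *PDC1*, 0.59 for *PDC5*, -0.51 for *ADH2*, -0.72 for *ADH3*, 0.54 for *ADH4*, -1.30 for *ADH5* and -2.02 for *ALD6*. For footprints they were -0.50 for *ADH1*, -0.51 for *ADH2*, -1.30 for *ADH3*, 1.73 for *ADH4*, -0.96 for *ALD4* and -2.15 for *ALD6*. The values of *ADH4*, 0.54 for mRNA and 1.73 for footprints, are a description and not a test result, since its change in *eIF3i DDKK* cells was known when the family was chosen. Of the other differences, those of *ADH3*, *ADH5* and *ALD6* in mRNA and of *ADH3*, *ALD4* and *ALD6* in footprints were called with each of the 8 cultures left out, and those of *PDC1*, *PDC5*, *ADH1* and *ADH2* were each lost with at least 1. Strain, medium, temperature and time differ with the allele and cannot be told apart.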

How the results depend on the processing

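Of 1135 refitted values of single members, 998 kept their direction and side of the threshold, 72 lost a call, 22 gained one and 43 changed sign. Where a value changed, the cause was not tested. Without a low-count filter the TErel change of *PDC1* in *eIF3i DDKK* cells was -0.0019. Scaling by library size alone reversed TErel of *ALD6* in *eIF3a/b Degron* cells (0.25), mRNA of *ADH3* (0.0083) and TErel of *ADH1* (0.062) and *ALD4* (0.035) in *eIF3i DDKK* cells, the TErel difference of *ALD6* between backgrounds (0.049), and between the WT strains mRNA of *ADH2* (0.16), *ADH4* (0.17) and *ADH5* (0.40) and TErel of *PDC5* (-0.054), *ADH2* (-0.064), *ALD4* (-0.0030) and *ALD6* (-0.077). TMM within each assay gave 0.065 for *ALD6* TErel in *eIF3a/b Degron* cells, and -0.016 for *ADH4* mRNA and 0.0025 for *ADH1* TErel in *eIF3i DDKK* cells. DESeq2 gave 0.0033 for *ADH1* TErel in *eIF3i DDKK* cells and -0.013 for the *ADH2* TErel difference. A fit of 16 libraries gave 0.10 for *ALD6* TErel in *eIF3a/b Degron* cells, and -0.015 for *ADH4* mRNA, 0.065 for *ADH1* TErel and 0.011 for *ALD4* TErel in *eIF3i DDKK* cells.

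Counts of called members moved as follows, with *ADH4* included only for *eIF3a/b Degron* cells. For TErel in *eIF3a/b Degron* cells the 8 became 5 with scaling by library size alone and 3 with a fit of 16 libraries. Over all genes the count there was 3175, 3454 with scaling by library size alone and 2343 with 16 libraries. For TErel in *eIF3i DDKK* cells the 1 became 0 with at least 10 counts in every library, a filter that removes *ADH5*. The TErel difference went from 0 to 1 with DESeq2. Between the WT strains mRNA went from 6 to 2 with scaling by library size alone, and TErel from 0 to 1 with DESeq2. Footprints there went from 2 lower and 1 higher to 2 in all with at least 10 counts in every library. Counts over all genes for TErel in *eIF3i DDKK* cells were 211, 203 with at least 10 counts in every library, 114 with scaling by library size alone and 723 with 16 libraries. For the TErel difference they were 192, 94 with scaling by library size alone and 304 with DESeq2. Between the WT strains they were 1949 for mRNA, 3476 with scaling by library size alone, and 200 for TErel, 944 with scaling by library size alone and 305 with DESeq2.

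Replicate numbers are shared by the strains in the labels, but nothing says what pairs them. For each group the replicates were subtracted by number, gene by gene, and these differences were correlated between groups, not the libraries themselves. Between WT and mutant the correlations were 0.011 (mRNA) and -0.023 (footprints) in the Degron background and 0.22 and 0.43 in the DDKK background. Between mRNA and footprints they were 0.14 and 0.048 (Degron WT and mutant) and 0.30 and 0.47 (DDKK WT and mutant). With the number as a replicate block, *PDC1* TErel in *eIF3i DDKK* cells was -0.017, and with the culture as a block -0.017. The count of genes called for TErel there was 441 with the number and 904 with the culture as block, and 295 for the difference with the number. With the number as block *PDC6* mRNA in *eIF3i DDKK* cells was called (1.13, adjusted p = 0.0357), as was the mRNA difference of *ALD4* (-0.60, adjusted p = 0.00323).

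With single cultures left out, some members lost or gained a call, as given above. Genes called ranged from 166 to 2028 for mRNA, 1283 to 3183 for footprints and 3 to 741 for TErel in *eIF3i DDKK* cells, from 1220 to 2567 for the mRNA difference and 3 to 694 for the TErel difference, and between the WT strains from 963 to 1366 for mRNA, 1481 to 1922 for footprints and 38 to 67 for TErel. Ranges that crossed 0 were, for TErel in *eIF3i DDKK* cells, -0.19 to 0.044 (*ADH1*), -0.32 to 0.32 (*PDC1*), -0.72 to 0.12 (*PDC5*) and -1.43 to 0.39 (*PDC6*), -0.043 to 0.18 for its *ADH4* mRNA, and -0.28 to 0.10 for *ALD6* TErel in *eIF3a/b Degron* cells. For differences between backgrounds they were -0.19 to 0.23 (*ADH2* TErel), -0.67 to 0.072 (*ADH5* footprints), -0.32 to 0.071 (*ALD6* TErel) and -0.72 to 0.12 (*PDC5* TErel), and between the WT strains -0.24 to 0.093 (*ADH5* mRNA) and -0.21 to 0.066 (*ALD4* footprints). Depth limits *ADH4* and *ADH5*, with 7 to 16 footprints in each mutant library, and *PDC6*.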
